A study of Mus musculus with 7 samples.

Results

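The MYC, MAX and MXD network is a family of basic helix-loop-helix leucine zipper proteins that compete for the same DNA. Its 10 genes were taken by symbol from the deposited expression table, which holds 39179 Ensembl gene IDs: Myc, Mycn, Mycl, Max, Mxd1, Mxd3, Mxd4, Mxi1, Mnt and Mlx. All 10 were found, and 9 passed the filter on low values (at least 10 in at least 3 libraries). Mycl did not pass. The genes were taken by name and role, with no threshold on their values. Mga, Mlxip and Mlxipl, which also pair with MAX or MLX, are given beside them.

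The samples were LSK cells, the bone marrow fraction without lineage markers that carries Sca-1 and Kit and holds blood stem cells and multipotent progenitors, sorted from C57/BL6 mice aged 7 weeks. The genotype of the 3 Jmjd1c libraries was Jmjd1c f/f Vav1Cre, where Cre acts on the floxed gene. The 4 control libraries came from mice with Vav1Cre alone, so both groups carried the Cre transgene, whose Vav1 promoter is active across blood cells. JMJD1C is a KDM3-type histone demethylase, and the design asks what its loss does to normal blood progenitors. No label ties each library to an animal of its own. The p-values therefore measure the spread among these 7 libraries and no more, and that spread may be technical.

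MYC proteins bind DNA as a pair with MAX, mostly at the E-box CACGTG, and raise genes of growth, ribosome synthesis and metabolism. The MXD proteins, MXI1 (also called MXD2) and MNT pair with MAX at the same box and recruit SIN3 and histone deacetylases, which lower those genes. MLX pairs with MXD1, MXD4 and MNT and also with MondoA (Mlxip) and ChREBP (Mlxipl), which respond to glucose. In blood, Myc drives progenitors to grow and leave the stem cell state, Mycn shares part of this work in stem cells, and Mxd genes are known for rising as cells stop dividing and mature.

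The E-box at which these proteins meet is itself present in the promoters of several network genes. Promoter windows of 300 bases (250 before to 50 after the start site that the RefSeq table uses) came from RefSeq on GRCm38.p6, and 12 of the 13 genes had at least 1, 9 of them members. Myc had no window, so its promoter was not searched. CACGTG, which reads the same on both strands, was found in the windows of 4 of these 9 members. Over all genes with a window, 2187 had the box and 24838 did not. Counted by window, of which a gene can have several, 7.15% of all 32851 hold it. In Max (chr12:76962219-76962278, minus strand) the box spanned the start site, with its first base 3 bases before it. Its first base was 219 bases before the start site in Mxd4 (chr5:34187897-34187956, minus strand), 123 in Mnt (chr11:74830774-74830833, plus strand) and 40 in Mlx (chr11:101087223-101087282, plus strand). The windows of Mycn, Mycl, Mxd1, Mxd3 and Mxi1 held none. The 4 stretches are shown 5′ to 3′ on the strand of the gene, with the E-box in capitals.
Max: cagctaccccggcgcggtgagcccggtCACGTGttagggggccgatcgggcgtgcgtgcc
Mxd4: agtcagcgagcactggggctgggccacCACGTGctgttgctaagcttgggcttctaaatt
Mnt: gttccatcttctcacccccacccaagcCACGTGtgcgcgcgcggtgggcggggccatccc
Mlx: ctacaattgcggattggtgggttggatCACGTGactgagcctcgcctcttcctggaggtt

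Mycn, which had the largest difference of the 9 tested members, is shown for another motif. E2F factors, the switch of S phase entry, bind sites of the type TTTNGCGC, which was searched on both strands after the values had been seen. The Mycn window held 3 matches, the first 2 overlapping on opposite strands, and the first starting 183 bases before the start site (chr12:12941970-12942046, minus strand), and 1.38% of all windows held any. Matched bases are in capitals.
Mycn: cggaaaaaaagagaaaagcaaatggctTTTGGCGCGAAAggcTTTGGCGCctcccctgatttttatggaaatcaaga
A match is a description of the sequence and not a measured binding site.

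Recovered reads in genes ranged from 4303712 to 6436519 per library. Normalized reads below are the deposited values, in which the reads of a library were scaled by 1 factor. The markers that LSK cells are sorted to carry were present in all libraries: Kit ran from 4778 to 7268 and Ly6a, which encodes Sca-1, from 694 to 915. Cd34, which is not part of the LSK definition, ran from 7850 to 8815. Jmjd1c itself held 458, 466, 516 and 512 normalized reads in controls 1 to 4 and 294, 244 and 254 in Jmjd1c 1 to 3, a log2 fold change of -0.89 ± 0.09 (SE; limma, adjusted p = 0.00407). A two-sided exact permutation test gave p = 0.0286, the lowest value possible with 35 splits. The value spans all exons of the gene, those outside the deleted part included. Markers of other cell types were also present, and the sums of 3 of their 7 lists did not overlap between the groups. The 9 neutrophil genes summed to 9687 to 13047 in control and 6681 to 9632 in Jmjd1c libraries. The 7 mast cell and basophil genes summed to 5686 to 8811 and 2204 to 4628, and the 8 B cell genes to 489 to 548 and 429 to 440. Prss34 alone held 1601 to 6828 normalized reads over the 7 libraries, and Cd79b 367 to 446. Taken singly, 3 of 8 tested neutrophil, 3 of 6 mast cell and basophil and 3 of 5 B cell genes did not overlap. So did 2 of 8 plasma cell, 1 of 3 T and NK cell, 0 of 9 macrophage and 0 of 8 erythroid genes, against 16.8% of all genes tested. Single genes past the limma threshold were 2 of the 8 tested plasma cell genes and 1 of the 6 tested mast cell and basophil genes, all lower in Jmjd1c libraries, as were 0.289% of all genes tested. The 8 plasma cell genes summed to 18966 to 29088 in control libraries and to 12063, 9957 and 30195 in Jmjd1c 1 to 3. Jmjd1c 3 thus had the highest plasma cell sum of the 7, and control 3 came next at 29088. Mycn was highest in Jmjd1c 3 (258) and lowest in control 3 (121). In Jmjd1c 2, where the plasma cell sum was lowest, Mycn was at 182. Every gene of the 7 lists had reads. Their part in the results below was not tested, and in bulk RNA fewer cells of a type and less RNA per cell cannot be told apart.

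No gene of the network passed the threshold between the genotypes. In limma 0 of the 9 tested members had an adjusted p under 0.05, against 1.80% of the 12813 genes tested (1.51% higher and 0.289% lower in Jmjd1c libraries). One member, Mycn, had an unadjusted p under 0.05, as did 19.7% of all tested genes, and Mycn was also the 1 member whose groups did not overlap, as in 16.8% of all genes. edgeR on the recovered reads called 0 members (1.82% of all genes), and DESeq2 called Mycn alone (5.21% of the 11317 genes to which it gave an adjusted p). The median log2 fold change of the 9 was -0.03, against -0.01 for all tested genes. Apart from Mycn, the 95% intervals of the tested members lay between 0.722-fold and 1.44-fold.

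**Figure D1:**
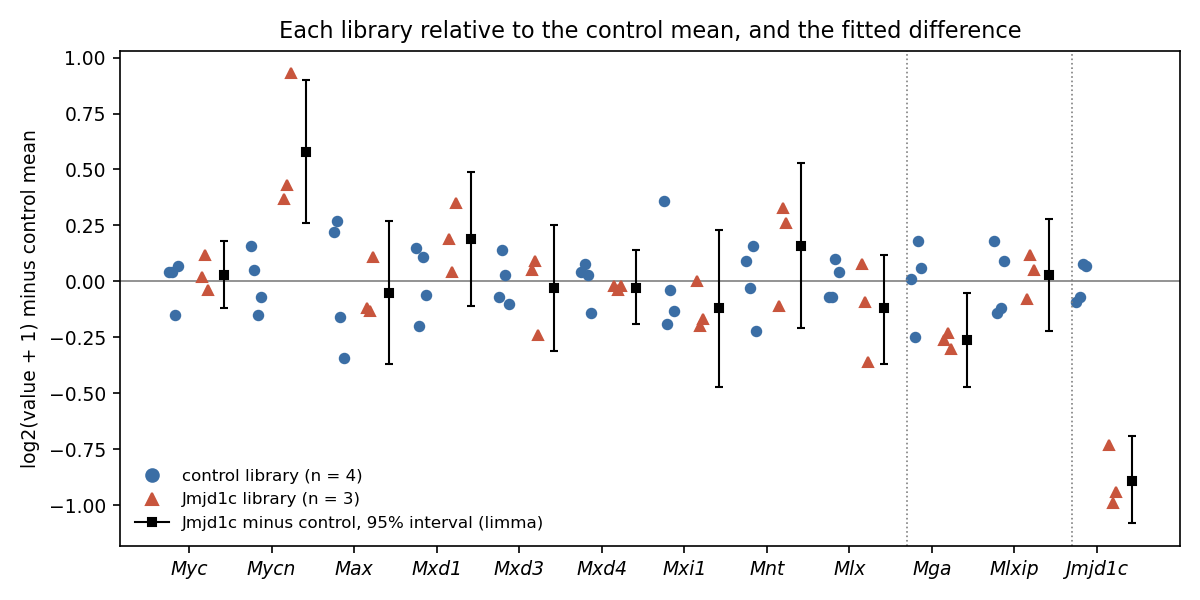
Log2(normalized reads + 1) of each library minus the mean of the 4 control libraries, for 9 members, for Mga and Mlxip (between the dotted lines) and for Jmjd1c. Circles are control and triangles Jmjd1c libraries, and squares with bars give the limma difference with its 95% interval. Mycn (0.58) stands above the other members, whose intervals all include 0, and Jmjd1c (-0.89) is lowest.

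Myc, the main driver of the network, was by far its most abundant transcript and was at almost the same level in both genotypes. It held 3319, 3305, 2906 and 3379 normalized reads in controls 1 to 4 and 3268, 3491 and 3133 in Jmjd1c 1 to 3. The highest library was Jmjd1c 2, the lowest was control 3, and the groups overlapped. The means were 3227 ± 217 (SD, n = 4) and 3297 ± 181 (SD, n = 3), and the log2 fold change was 0.03 ± 0.07 (SE; limma, adjusted p = 0.832). Its 95% interval ran from 0.921-fold to 1.14-fold, so a change of 1.5-fold either way lay outside it. With 2493 to 4148 reads per library, Myc (ENSMUSG00000022346; GRCm38 chromosome 15, 61985391 to 61990374, plus strand) had the most reads of the 10. The sign of this small difference turned without control 3 (-0.02) and without Jmjd1c 2 (-0.01).

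Mycn, which can stand in for Myc in blood stem cells, was the member with the largest difference. Controls 1 to 4 held 151, 140, 121 and 129 normalized reads, and Jmjd1c 1 to 3 held 175, 182 and 258. Every Jmjd1c library lay above every control library, and Jmjd1c 3 lay well above the other two. The means were 135 ± 13.2 (SD, n = 4) and 205 ± 46.2 (SD, n = 3), a log2 fold change of 0.58 ± 0.15 (SE) with a 95% interval from 0.26 to 0.90, or 1.49-fold. Adjusted over all genes it did not pass in limma (adjusted p = 0.0627) or edgeR (adjusted p = 0.0678), and it passed in DESeq2 (adjusted p = 0.0194). Over the alternatives tried, the log2 fold change ran from 0.40 (without Jmjd1c 3) to 0.68 (without Jmjd1c 1, where limma called it with adjusted p = 0.0383), and the adjusted p from 0.0194 to 0.223. Corrected for transcript GC and length it was 0.49 (limma, adjusted p = 0.106). Mycn (ENSMUSG00000037169) lies on chromosome 12, 12936093 to 12941914, minus strand.

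**Figure D2:**
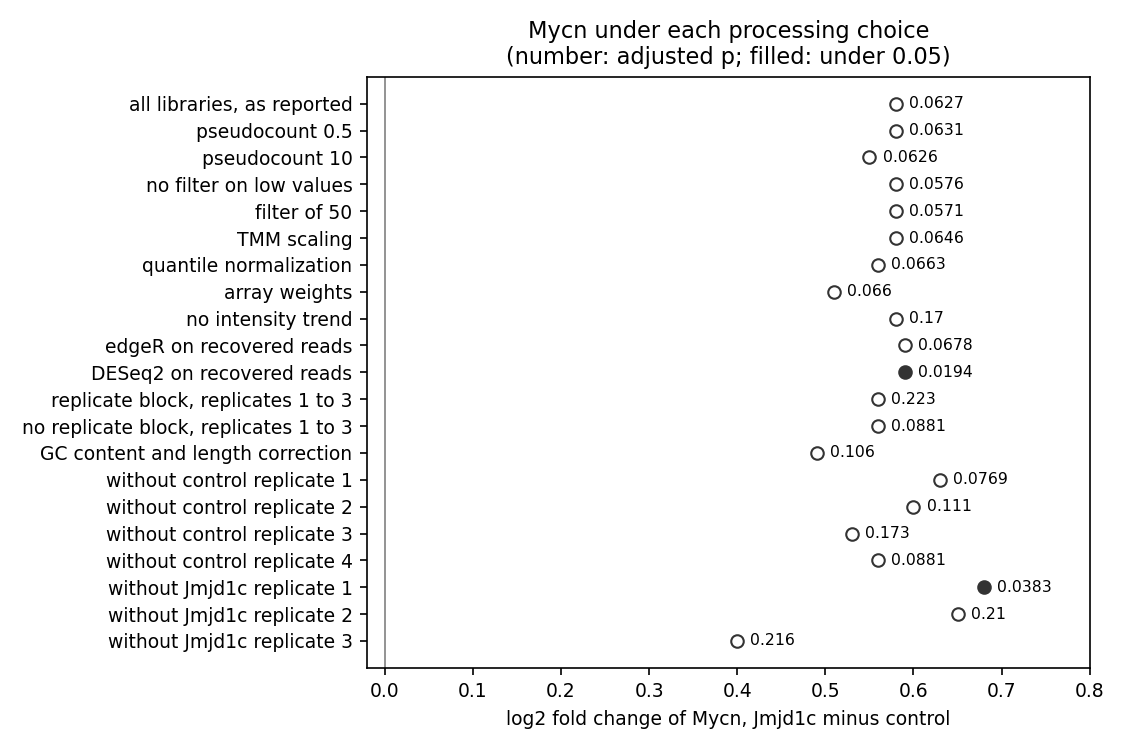
Log2 fold change of Mycn (Jmjd1c minus control, x axis) under each processing choice, with the adjusted p beside each point and filled points where it was under 0.05. All values lie between 0.40 and 0.68, and 2 of the 20 alternatives, DESeq2 and the fit without Jmjd1c 1, were past the threshold.

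Mycl, the third MYC gene (chromosome 4, 122995652 to 123002485, plus strand), was close to undetected. Its libraries held 2 to 4 reads each, 12 over the 4 controls and 8 over the 3 Jmjd1c libraries, too few to compare. Within the MYC family the mixture of transcripts was therefore nearly all Myc. Per kilobase of merged exons, Mycn made up 3.62%, 3.37%, 3.32% and 3.04% of the 3 MYC genes in controls 1 to 4 and 4.22%, 4.13% and 6.36% in Jmjd1c 1 to 3. These shares did not overlap between the groups, as the Mycn values themselves do not, and they carry no test of their own.

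Max, the shared partner without which neither MYC nor MXD proteins bind the E-box, varied among the control libraries more than it differed between genotypes. Controls 1 to 4 held 286, 294, 219 and 193 normalized reads, and Jmjd1c 1 to 3 held 224, 223 and 264. Controls 1 and 2 were the highest and control 4 the lowest of the 7, with the Jmjd1c libraries in between. Between genotypes the log2 fold change was -0.05 ± 0.15 (SE; limma, adjusted p = 0.885), with an interval from 0.774-fold to 1.21-fold. Leaving out control 1 or control 2 turned its sign (0.03 and 0.04). Max had 188 to 357 reads per library, and the spread within groups was 17.0% of the mean where counting alone gives 6.47%. Max lies on chromosome 12, 76937269 to 76962201, minus strand.

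Mxd4, the repressor of the network with the highest level, was the steadiest member. It held 476, 490, 472 and 421 normalized reads in controls 1 to 4 and 456, 450 and 458 in Jmjd1c 1 to 3. The 3 Jmjd1c libraries were nearly equal and lay inside the control range. Its log2 fold change was -0.03 ± 0.08 (SE; limma, adjusted p = 0.865), and the interval ran from 0.874-fold to 1.10-fold. Its spread within groups, 5.14% of the mean, was close to the 4.69% that counting alone gives. Mxd4 lies on chromosome 5, 34173883 to 34187720, minus strand.

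Mxd1, known as MAD1 and for its rise in maturing granulocytes, held 110, 85.7, 106 and 94.4 normalized reads in controls and 113, 101 and 126 in Jmjd1c libraries. The groups overlapped, although 2 of the 3 Jmjd1c libraries were above all controls. The difference of 0.19 ± 0.14 on the log2 scale (SE) did not pass (limma, adjusted p = 0.462), and it was 0.11 without Jmjd1c 3. The summed neutrophil markers given above were lower in Jmjd1c libraries, and their part in this value was not tested. Mxd1 lies on chromosome 6, 86647042 to 86669161, minus strand.

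Mxd3, the MXD gene known for its expression in S phase, held 114, 132, 121 and 111 normalized reads in controls and 123, 127 and 101 in Jmjd1c libraries. Jmjd1c 3 was the lowest library and the other two lay within the control range. The log2 fold change was -0.03 ± 0.13 (SE; limma, adjusted p = 0.914), and 0.01 without control 2 and 0.07 without Jmjd1c 3. Exons of Mxd3 overlap those of Prelid1 on the opposite strand. Prelid1 was at 520 to 585 in control and 616 to 681 in Jmjd1c libraries. Strand use in the counting is not given in the sources used here, so reads of the 2 genes cannot be told apart where they overlap. Mxd3 lies on chromosome 13, 55325168 to 55329823, minus strand.

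Mxi1, a repressor that is also induced by low oxygen, held 116, 78.4, 87.4 and 82.2 normalized reads in controls and 90.2, 78.3 and 79.8 in Jmjd1c libraries. Control 1 stood above the other 6 libraries. On the log2 scale the difference was -0.12 ± 0.16 (SE; limma, adjusted p = 0.708) and 0.00 without control 1. It overlaps Gm10197 on the opposite strand, which had 6.99 to 13.6 normalized reads. Mxi1 lies on chromosome 19, 53310518 to 53375810, plus strand.

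Mnt, the widely expressed repressor that opposes MYC in dividing cells, had the fewest reads among the tested members, 53 to 87 per library. Its values were 69.6, 64.0, 73.4 and 56.0 in controls and 60.4, 82.4 and 78.7 in Jmjd1c libraries. Jmjd1c 2 and 3 were above all controls and Jmjd1c 1 was among the lowest. For Mnt the log2 fold change was 0.16 ± 0.17 (SE; limma, adjusted p = 0.631), and -0.08 once corrected for transcript GC and length. It was 0.07 without Jmjd1c 2, 0.09 without control 4 and 0.30 without Jmjd1c 1. Its longest transcript was the richest in GC of the 10 members, at 59.5%. Mnt lies on chromosome 11, 74830920 to 74845725, plus strand.

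Mlx held 240, 241, 272 and 260 normalized reads in controls and 266, 237 and 197 in Jmjd1c libraries. Jmjd1c 3 was the lowest of all 7, while Jmjd1c 1 was near the top of the control range. The log2 fold change was -0.12 ± 0.11 (SE; limma, adjusted p = 0.563), and -0.01 without Jmjd1c 3. Mlx shares exon sequence with Psmc3ip on the opposite strand, at 191 to 238 normalized reads, so the limit given for Mxd3 holds here too. Mlx lies on chromosome 11, 101087277 to 101092207, plus strand.

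Among the partners outside the 10, Mga, a large protein that pairs with MAX in a polycomb-type repressor complex, had the largest difference. It held 511, 427, 577 and 529 normalized reads in controls and 425, 434 and 412 in Jmjd1c libraries. The Jmjd1c libraries were close together at the bottom of the range, with control 2 among them. The log2 fold change was -0.26 ± 0.10 (SE; limma, adjusted p = 0.174), and the adjusted p ran from 0.0763 to 0.372 over the alternatives. Mlxip was at 159 to 199 in control and 167 to 192 in Jmjd1c libraries (log2 fold change 0.03 ± 0.11; limma, adjusted p = 0.907). Mlxipl, mainly a gene of liver and fat, had 0 to 2 reads per library, where a count of 0 allows up to 3 reads.

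Levels of different genes were compared per kilobase of merged exons. Myc stood at 1199 ± 69.6 normalized reads per kilobase (SD, n = 7 libraries), 9.79 times the level of Mlx (122 ± 12.5). Max followed at 67.6 ± 10.6, then Mxd4 at 54.3 ± 2.62, Mycn at 50.1 ± 14.2, and Mxd3 just behind with libraries from 42.6 to 55.5. Mnt (15.0 ± 2.09), Mxd1 (14.8 ± 1.83) and Mxi1 (12.8 ± 1.96) formed a lower group, and Mycl (0.719 ± 0.274) was last. The ranges of neighbours did not overlap between Myc and Mlx, Mlx and Max, Mxd3 and Mnt, or Mxi1 and Mycl. Neighbours in the order Max, Mxd4, Mycn, Mxd3 overlapped, as did those in the order Mnt, Mxd1, Mxi1. Compared within each library, Max was above Mxd4 in 7 of the 7, Mxd4 above Mycn in 5 and Mycn above Mxd3 in 3. Likewise, Mnt was above Mxd1 in 3 and Mxd1 above Mxi1 in 6. Mycn held rank 6 by its control mean (41.0 ± 3.99, SD, n = 4) and rank 4 by its Jmjd1c mean (62.2 ± 14.0, SD, n = 3). With the length of the longest transcript, Max and Mlx were both at 125 and Max came before Mlx, Mxd3 before Mycn, and Mxd1 and Mxi1 before Mnt. Myc was first and Mycl last under both lengths.

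**Figure D3:**
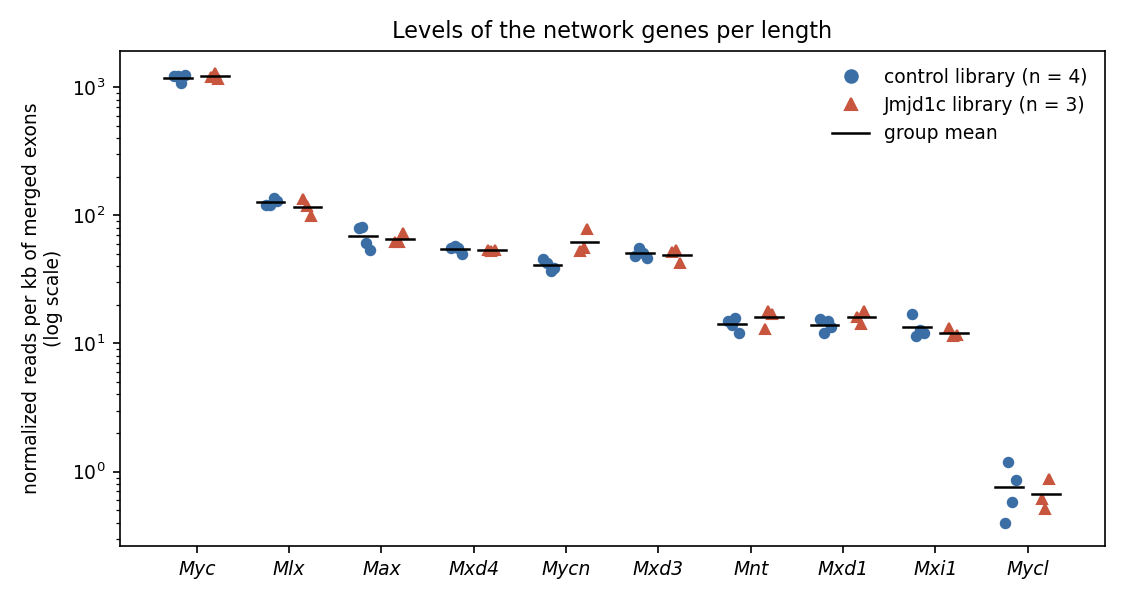
Normalized reads per kilobase of merged exons (log axis) for the 10 members, in order of their mean. Circles are control libraries, triangles Jmjd1c libraries and lines the group means; Myc, near 1199, is about an order of magnitude above Mlx (122), and Mycl (0.719) is far below the rest.

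The balance of activator and repressor transcripts differed between the groups by less than the spread within the control group. Summed per kilobase, the repressors Mxd1, Mxd3, Mxd4, Mxi1 and Mnt came to 147 ± 8.51 in control (SD, n = 4) and 147 ± 3.63 in Jmjd1c libraries (SD, n = 3). MYC family transcripts were 8.41 ± 0.911 and 8.68 ± 0.227 times that sum. The ratio was 8.36, 8.36, 7.35 and 9.58 in controls 1 to 4 and 8.49, 8.93 and 8.61 in Jmjd1c 1 to 3, so all Jmjd1c libraries lay within the control range. With the length of the longest transcript the ratio was 6.46 ± 0.69 in control (SD, n = 4) and 6.69 ± 0.215 in Jmjd1c libraries (SD, n = 3). Relative to Max, MYC family transcripts were 15.4 to 23.9 times as high across the 7 libraries. They were 9.68 to 15.0 times as high with the length of the longest transcript. These are ratios of transcripts and not of proteins, whose turnover differs.

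The genes whose pattern over the 7 libraries lay nearest to Myc and Mycn were found by the root mean square distance of centred log2(value + 1) values, over 8965 other genes. For Myc these were Nipsnap3b (0.0293), Adal (0.0380) and Tlk1 (0.0399), where the median distance was 0.164. For Mycn they were Alg2 (0.0639), U2af2 (0.0648) and Wipf1 (0.0677), with a median distance of 0.363. Distances over 7 libraries describe these libraries only.

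Genes that act with the network were read from lists of related proteins. Of the 16 genes of the SIN3 and histone deacetylase complex, through which MXD and MNT proteins repress, none passed the limma threshold (3 at an unadjusted p under 0.05; edgeR called 0 and DESeq2 1), and the median log2 fold change was 0.02. The histone-binding subunit gene Rbbp7 had 0.39 ± 0.10, from 1816 ± 235 to 2364 ± 171 normalized reads (limma, adjusted p = 0.0609), and Sin3a, the scaffold, had 0.27 ± 0.08, from 722 ± 39.7 to 872 ± 84.2 (limma, adjusted p = 0.0992). In both genes the groups did not overlap, as in 3 of the 16 (18.8%) against 16.8% of all genes tested. The share at an unadjusted p under 0.05 was 18.8%, against 19.7%.

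Of 19 coactivators that MYC works with, 1 rose, none fell and 18 did not pass. That is 5.26% of the list called, against 1.80% of all genes tested. Cdk9, the kinase that releases paused RNA polymerase II, rose by 0.82 ± 0.15 (SE; limma, adjusted p = 0.0343). It held 109, 128, 120 and 150 normalized reads in controls and 178, 231 and 270 in Jmjd1c libraries. Its groups did not overlap, as in 6 of the 19 (31.6%) against 16.8% of all genes tested. In this list 9 genes had an unadjusted p under 0.05, a share of 47.4% against 19.7% over all tested genes, and the median log2 fold change was 0.12. The median GC content of the list was 52.5%, against 49.4% for all tested genes, and the GC- and length-corrected median was 0.06.

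Of 20 genes that set the stability of MYC protein, 1 rose and 19 did not pass, with a median of 0.07. That is 5% of the list called, against 1.80% of all genes tested, and 4 of the 20 (20%) had an unadjusted p under 0.05, against 19.7%. The riser was Usp22, a deubiquitinase of the SAGA complex, by 0.53 ± 0.11 (SE; limma, adjusted p = 0.0410). Controls held 314 to 360 normalized reads and Jmjd1c 1 to 3 held 400, 535 and 547.

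Of 41 tested genes that MYC is known to raise, 2 rose, none fell and 39 did not pass. The share called was 4.88%, against 1.80% of all genes tested. Their median log2 fold change was 0.08, 33 (80.5%) were above 0, against 48.5% of all genes, and 13 (31.7%) had an unadjusted p under 0.05, against 19.7%. Without Jmjd1c 2 the median was 0.04. Cad, which starts pyrimidine synthesis, rose by 0.68 ± 0.11 (SE; limma, adjusted p = 0.0317), from 348 ± 49.9 (SD, n = 4) to 558 ± 54.1 (SD, n = 3). Tcof1, the nucleolar factor of ribosomal RNA synthesis, rose by 0.58 ± 0.10 (SE; limma, adjusted p = 0.0317), from 713 ± 59.2 to 1070 ± 146. These lists were drawn up with results on Cad, Tcof1 and Mycn in these libraries already known, so they are no independent evidence of a direction.

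The calls of Cdk9, Usp22, Cad and Tcof1 did not hold when certain single libraries were left out. None of the 4 passed in limma without control 2, control 3, Jmjd1c 2 or Jmjd1c 3, with adjusted p from 0.0635 to 0.217, and all kept log2 fold changes of at least 0.45. Cdk9 and Usp22 also did not pass without control 1 (0.0540 and 0.0563), nor Usp22 without control 4 (0.0534). With GC and length corrected only Cdk9 passed (limma, adjusted p = 0.0422), and Cad and Tcof1 had 0.46 and 0.36. In limma without the intensity trend none of the 4 passed. With the replicate number as a block, in replicates 1 to 3, none passed either (limma, adjusted p from 0.0605 for Cdk9 to 0.147 for Usp22).

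Genes that MYC is known to lower showed no common direction. Of 8 tested, 4 were above 0 and 4 below, none passed in limma, edgeR or DESeq2, and the median was 0.00. In limma 2 (25%) had an unadjusted p under 0.05, against 19.7% of all genes tested. The groups did not overlap in 1 of the 8 (12.5%), Cdkn1a, against 16.8% of all genes tested. The cell cycle inhibitor Cdkn1a held 43.1 to 67.6 normalized reads in control and 72.0 to 84.5 in Jmjd1c libraries (0.54 ± 0.18, SE; limma, adjusted p = 0.148). Ndrg1, of stress and differentiation, had 0.28 ± 0.11 (SE; limma, adjusted p = 0.199).

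The 5 tested targets of MLX with MondoA or ChREBP all had log2 fold changes below 0, as did 6605 of all 12813 genes tested. None passed in limma, edgeR called 0 and DESeq2 1, and the median log2 fold change was -0.33. In limma 2 (40%) had an unadjusted p under 0.05, against 19.7% of all genes tested. The groups did not overlap in 2 (40%), against 16.8% of all genes tested. Txnip, the inhibitor of thioredoxin and of glucose uptake that MondoA controls, held 3954, 4688, 4308 and 3700 normalized reads in controls and 3424, 2355 and 3580 in Jmjd1c libraries. All Jmjd1c libraries were below all controls, and Jmjd1c 2 was far below the other two. The log2 fold change was -0.43 ± 0.13 (SE; limma, adjusted p = 0.109; DESeq2, adjusted p = 0.0162). Klf10, a zinc finger repressor, held 1742 to 2051 and 1237 to 1741 (-0.33 ± 0.11, SE; limma, adjusted p = 0.142). Without Jmjd1c 2 the values were -0.24 for Txnip, -0.17 for Klf10 and -0.14 for the median of the 5. Mlx and Mlxip themselves, given above, did not pass.

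**Figure D4:**
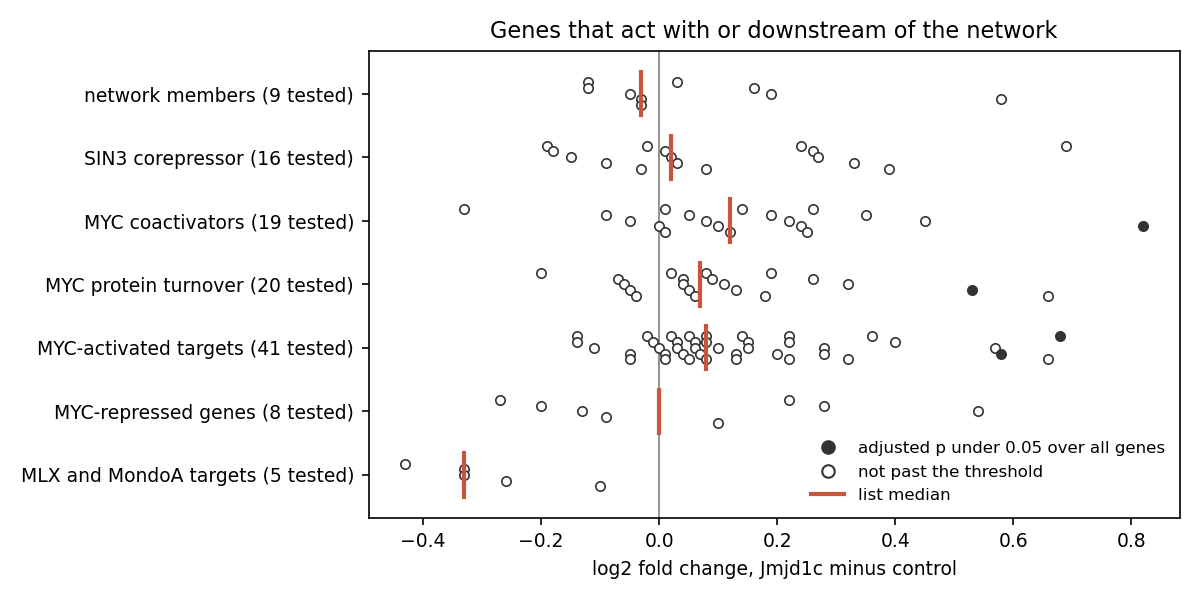
Log2 fold change (Jmjd1c minus control, x axis) of each tested gene in the network and in 6 lists of genes that act with it or downstream. Filled points had a limma adjusted p under 0.05 over all 12813 genes, and red bars are list medians, from -0.33 (MLX and MondoA targets) to 0.12 (MYC coactivators).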

How the data were processed

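Bulk RNA of LSK cells was measured in 7 libraries. Per the labels' protocols, RNA was extracted with Trizol and amplified with a SMARTer ultra-low-input kit before Illumina paired-end library preparation. Tools listed in the submitters' processing notes are STAR, HTSeq 0.6.1p1, DESeq 1.18.0 and Trim Galore 0.2.8, with build mm10. Annotation release and strand setting: not given in the sources used here. The deposited signal is reads per gene divided by a size factor per library: each value was a whole multiple of its column's step (100% of values above 0, tolerance 0.01 of a read). Symbols matched 37607 of 39179 IDs. Lengths, GC content and positions came from GENCODE M21 (GRCm38).

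The test was limma-trend (limma 3.58.1, R 4.3.3) on log2(value + 1), which understates changes of low genes, for 12813 genes at 10 or more in at least 3 libraries, with Benjamini-Hochberg adjustment over all of them and a threshold of 0.05. edgeR 4.0.16 (quasi-likelihood) and DESeq2 1.42.0 were run on recovered reads. The fit was tested on simulated data. Errors are SDs beside means and SEs beside fold changes. Counting errors cover counting only.

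Members and lists were chosen with earlier results of these data known. Named genes are the network and its partners; from each list the genes past the threshold (at most 4) or the 2 smallest p-values; the 3 nearest patterns to Myc and Mycn (protein-coding genes with a mean of at least 50, predicted ones left out); the top gene of each other cell type; and genes overlapping a member. Kit, Cd34 and Ly6a were added.

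Alternatives were pseudocounts of 0.5 and 10, no filter, a filter of 50, TMM, quantile normalization, array weights, no intensity trend, both count tests, a replicate block, the same replicates 1 to 3 without it, a GC and length correction (natural splines), leaving out each library, a threshold of 0.1 and the longest transcript as length.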

Additional observations from a re-analysis of the deposited data

Results flagged for a closer look

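The control group was looked at for 59 values, 44 single genes and 15 sums or ratios of genes, and in 8 a library lay far from the other 3 by Dixon's ratio of gap to range. Chance flags about 1 group in 20, and several of these values share genes. Myc was 2906 normalized reads in control 3 against 3305 to 3379 in the other controls (ratio 0.843), and the summed MYC family per kilobase, nearly all Myc, was 1107 there against 1260 to 1283. Adal, picked for its likeness to Myc, was 169 in control 3 against 204 to 211. The summed repressors Mxd1, Mxd3, Mxd4, Mxi1 and Mnt were 134 per kilobase in control 4 against 150 to 152 (ratio 0.937). Mxd4 made up 38.3% of that sum in control 2 against 37.0% in each other control. C1qb, the macrophage marker with the highest level, was 2682 in control 4 against 572 to 887 (ratio 0.851), and the 9 macrophage genes summed to 9079 there against 2245 to 3222. The 8 T and NK cell genes summed to 1957 in control 1 against 1728 to 1762. Most of that sum was Nkg7, at 1853 in control 1 and 1479 to 1639 in the other controls. Without control 4 the log2 fold changes of the tested members ran from -0.16 (Max) to 0.56 (Mycn).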

How the results depend on the processing

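Of the 9 tested members, 0 passed with all libraries and in most alternatives; 1, Mycn, passed in DESeq2, at a threshold of 0.1 and without Jmjd1c 1, so the count ran from 0 to 1 as each library was left out. Over all genes the 231 calls became 0 without the intensity trend, 590 in DESeq2, 15 (8 higher, 7 lower) with the replicate number as a block, 83 (64 higher, 19 lower) with the GC and length correction, 716 at a threshold of 0.1, and 3 to 631 as each library was left out (72, 3, 3 and 211 without controls 1 to 4; 631, 3 and 9 without Jmjd1c 1 to 3). Same-numbered deviations from the group means correlated at -0.0456, -0.0669 and -0.0261, and none of the 3 control libraries correlated best with its own number. With 3 libraries in each group, these values cannot show whether replicate numbers pair the libraries. Jmjd1c (-0.89) did not pass without the intensity trend (adjusted p = 0.117), and passed in the other 19 alternatives. Signs turned for small differences alone: leaving out each library gave -0.02 to 0.07 for Myc, -0.16 to 0.04 for Max, -0.09 to 0.07 for Mxd3 and -0.02 to 0.09 for Mlxip, and the GC and length correction gave -0.08 for Mnt and -0.07 for Mlxip; the cause was not tested. Mycn and Mxd1 were above 0, and Mlx and Mga below 0, in all alternatives. Depth limits Mycl and Mlxipl, and counting error makes up most of the spread of Mxd1, Mxd3, Mxd4 and Mnt.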

Other observations

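Genes with the network's E-box in their promoter window were compared with the rest, a division made after the data were seen. Of 1128 tested genes with CACGTG in a window, 14 rose, 1 fell and the median log2 fold change was 0.01. Of 8372 tested genes with a window and no such box, 137 rose, 25 fell and the median was -0.01. The shares past the limma threshold were 1.33% and 1.94%, against 1.80% of all genes tested. DESeq2 called 53 of the 1128 and 415 of the 8372. Over all genes to which it gave an adjusted p, DESeq2 called 590 of 11317 (5.21%). Their median GC content was 49.8% and 49.4%. No test was made of the difference.

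Precision differed between the members. The spread within groups was 3.55 times the counting error for Myc, 2.62 times for Max and 2.39 times for Mycn, but 1.04 to 1.13 times for Mxd1, Mxd3, Mxd4 and Mnt. For those 4 genes the spread between libraries was thus close to that of counting reads.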
